A study of Rattus norvegicus with 60 samples.

Results

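Kidney outer medulla was compared with kidney cortex in wild-type Dahl salt-sensitive rats (SS) kept under control conditions, which the labels call LS. The comparison used 10 of the 60 libraries of the series, 5 per tissue, chosen by their titles alone. The Dahl salt-sensitive rat is an inbred strain in which dietary salt raises blood pressure and injures the kidney. Both groups carried the intact Nox4 gene, and neither had received the 4.0% NaCl diet. The same tissue difference was also measured in SS rats after 21 days on that diet (HS21) and, under LS, in a NOX4 knockout line derived from SS rats, each with 5 libraries per tissue. The labels give no age, sex, strandedness or salt content of the control diet. They do not say whether each library came from a separate animal. The p-values measure the spread between libraries of the same group, estimated over all 60 libraries, and this spread may be partly technical.

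The cortex holds the glomeruli, which filter the blood, the convoluted proximal and distal tubules and the connecting tubules. The outer medulla holds the straight end of the proximal tubule (segment 3), thin limbs, the thick ascending limb of the loop of Henle, collecting ducts and bundles of straight vessels called vasa recta. The thick ascending limb reabsorbs salt without water and so builds the osmotic gradient with which the kidney concentrates urine. Reabsorption of filtered glucose, amino acids, phosphate and bicarbonate, and most ammonia and glucose synthesis, take place in the proximal tubule.

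Levels are given as CPM (counts per 1e6 counts of the library), scaled for library composition. A tissue difference is the log2 ratio of outer medulla to cortex, fitted by edgeR's quasi-likelihood test over all 60 libraries and given ± its standard error (SE); a value below 0 means lower in outer medulla. Genes with an adjusted p under 0.05 are spoken of as called. Of 16326 genes tested, 8770 were called (53.7%), 4311 of them higher in outer medulla (26.4% of all tested) and 4459 lower (27.3%). Of the called genes 4562 differed by at least 2-fold (27.9% of all tested). All 5 libraries of one tissue lay above all 5 of the other for 5035 genes (30.8%). The median difference over all genes was 0.01. Every count for a gene group is read against these shares.

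The libraries held 13.4 to 16.6 M counts in cortex and 12.1 to 18.8 M in outer medulla (M, 1e6 counts). With every library thinned to 10 M counts, 11 of the 60 libraries detected 16117 genes or fewer and the others 16916 or more. Of those 11, cortex libraries 2, 3 and 4 and outer medulla libraries 2, 3 and 5 belonged to this comparison. They are called low-complexity libraries here. Without all 11 of them, only cortex libraries 1 and 5 and outer medulla libraries 1 and 4 of this comparison remained. In that refit 6244 of the 8770 called genes were still called in the same direction, and 117 had the opposite sign. The smaller number of libraries and the absence of these particular ones cannot be told apart in a lost call. That refit called 7111 of 16763 tested genes, 3415 of them higher in outer medulla. List counts without the low-complexity libraries are read against these numbers. Cortex library 3 was the highest of the 5 cortex libraries in 15 of the 23 called thin limb and thick ascending limb genes that were higher in outer medulla. Outer medulla library 3 was the lowest of its group in 23 of 29 called proximal tubule genes that were lower there. The part of these 2 libraries in the results was not tested beyond leaving each out. The labelled tissues fitted single defining markers, with Nphs1 (podocyte), Slc5a2 (early proximal tubule) and Slc12a3 (distal convoluted tubule) low in outer medulla and Slc12a1 (thick ascending limb) high there; the exception was segment 3 of the proximal tubule, described below.

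**Figure D1:**
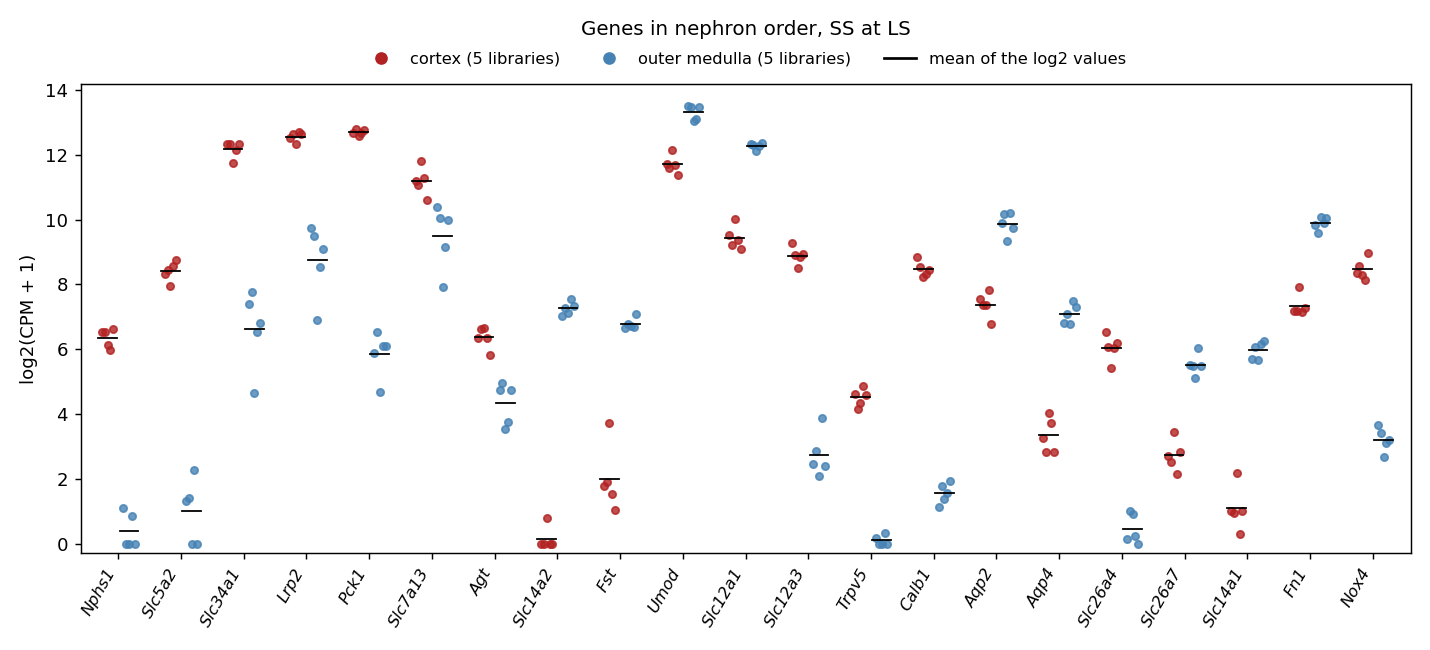
Level of 21 genes in each library on a log2(CPM + 1) axis, in order along the nephron and then vessels, matrix and Nox4; each point is 1 of 5 libraries and each bar the mean of the log2 values. The points of cortex and outer medulla do not overlap for any gene shown (30.8% of all tested genes do not overlap). Most of the genes were named for large differences and some after their values were seen, so the separation partly reflects the choice.

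Promoters of 3 early proximal tubule genes and 3 immediate early genes are shown first, because they carry DNA words known from the regulation of these gene groups. HNF1 proteins, which drive proximal tubule transport genes, bind sites built from the word GTTAAT. This word is only a part of a full HNF1 site. In the 250 bases before the start, both strands were read. The short word stood in 3 of 17 promoters of the early proximal tubule list (17.6%) and in 6.45% of all 33469 promoters. Each longer HNF1 word that was also searched stood in 0 of these 17 promoters and in at most 0.323% of all. Only the short word is shown. In the windows of the 3 genes below, the capitals mark the first match, which in Slc6a19 and Slc34a1 reads as its reverse complement, ATTAAC. Sequences and positions are from RefSeq's GRCr8 assembly.
Slc6a19, chr1:31414592-31414669, plus strand: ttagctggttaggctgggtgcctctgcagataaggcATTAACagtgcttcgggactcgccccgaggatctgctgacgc
Slc22a8, chr1:214927155-214927232, plus strand: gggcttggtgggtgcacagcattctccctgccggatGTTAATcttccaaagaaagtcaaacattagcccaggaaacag
Slc34a1, chr17:9239089-9239166, minus strand: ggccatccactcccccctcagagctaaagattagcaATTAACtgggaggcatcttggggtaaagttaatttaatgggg
The matches began 116, 93 and 147 bases before the start of Slc6a19, Slc22a8 and Slc34a1. The tissue differences of the 3 genes were -8.04, -7.94 and -5.25.

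The cyclic AMP response element TGACGTCA, a word bound by the CREB factor in genes that cells switch on within minutes of a stimulus, stood in 3 of 14 promoters of the immediate early list (21.4%) and in 1.59% of all promoters. It is shown in capitals for the 3 genes, from the same assembly and searched in the same way.
Dusp1, chr10:17184693-17184772, plus strand: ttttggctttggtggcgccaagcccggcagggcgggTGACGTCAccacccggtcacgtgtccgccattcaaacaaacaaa
Btg2, chr13:48087848-48087927, minus strand: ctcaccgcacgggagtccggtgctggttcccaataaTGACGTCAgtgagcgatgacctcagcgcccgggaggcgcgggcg
Jund, chr16:18769949-18770021, minus strand: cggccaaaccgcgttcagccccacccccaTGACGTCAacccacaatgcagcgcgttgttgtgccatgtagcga
The words stood 124, 201 and 221 bases before the start of Dusp1, Btg2 and Jund. Their tissue differences were 2.64, 2.39 and 0.37. A match is a description of the letters in this window and not evidence of binding; 12 words were searched in all, and those shown were picked with the results known.

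Genes of the early proximal tubule (segments 1 and 2) had the lowest median of the 47 gene lists. Of 19 genes, 18 were lower (27.3% of all tested genes were) and 1 was higher (26.4% of all), with a median difference of -5.25. No gene's libraries overlapped between the tissues (30.8% of all tested genes did not overlap). Fewer cells of a type and less RNA per cell cannot be told apart in tissue RNA.

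Slc5a2 (chr1:199682688-199688809 in the deposited table, whose build is not given in the sources used here), the sodium-glucose cotransporter SGLT2 that reclaims most filtered glucose, stood at 316, 349, 245, 377 and 429 CPM in cortex libraries 1 to 5. In outer medulla it stood at 1.47, 1.63, 0, 3.80 and 0 CPM. Outer medulla levels were thus close to 0. The 2 libraries at 0, numbers 3 and 5, were both low-complexity libraries, which detected fewer genes. The difference was -7.95 ± 1.02 (adjusted p = 4.7e-09). The neutral amino acid transporter Slc6a19 read 248, 274, 166, 251 and 333 CPM in cortex and 1.24, 1.34, 0, 2.21 and 0 CPM in outer medulla. The renal phosphate transporter Slc34a3 stood at 155, 178, 121, 165 and 186 CPM in cortex and at 0.505, 0.991, 0, 1.17 and 0 CPM in outer medulla, a difference of -8.25 ± 1.02. Slc5a12, a lactate and pyruvate carrier, and Slc22a8, an organic anion transporter, differed by -8.00 ± 1.16 and -7.94 ± 1.16. None of these transporters rose above 7.71 CPM in any outer medulla library. The values of 0 for Slc6a19 and Slc34a3 fell in low-complexity libraries 3 and 5 too.

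The list also held genes expressed along more of the proximal tubule. Slc34a1, the main phosphate transporter, read 5137, 5131, 3458, 4501 and 5180 CPM in cortex and 167, 218, 24.1, 92.1 and 112 CPM in outer medulla. Lrp2, which encodes the endocytic receptor megalin, read 5833, 6372, 5165, 6618 and 6336 CPM in cortex and 848, 715, 119, 372 and 545 CPM in outer medulla, a difference of -3.54 ± 0.50. In both genes outer medulla library 3 was the lowest. The 1 member that was higher in outer medulla was Slc9a3, the sodium-proton exchanger NHE3, which the thick ascending limb also carries. It stood at 166 to 194 CPM in cortex and 355 to 485 CPM in outer medulla, a difference of 1.21 ± 0.21.

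Segment 3 of the proximal tubule runs into the outer stripe of the outer medulla, so its markers are usually strongest there. In SS rats under LS 11 of its 14 genes were lower in outer medulla and 2 were higher, with a median of -2.10. Slc7a13, an acidic amino acid and cystine transporter of the straight proximal tubule, read 2344, 2134, 3560, 2495 and 1566 CPM in cortex. In outer medulla it read 1335, 1049, 240, 572 and 1018 CPM, so that every cortex library was higher. The difference was -1.52 ± 0.64 (adjusted p = 0.0391). This call ended without the low-complexity libraries (-1.04, adjusted p = 0.383), with limma voom and without cortex library 3 or 4 or outer medulla library 3 or 4.

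Other segment 3 genes had firmer differences. Slc3a1, the partner subunit of cystine transporters, read 3450, 3181, 4193, 3583 and 2846 CPM in cortex and 1127, 946, 240, 506 and 807 CPM in outer medulla (-2.25 ± 0.45). The brush border protease Mep1a read 532, 471, 581, 559 and 501 CPM against 142, 126, 23.9, 68.0 and 87.4 CPM (-2.56 ± 0.46). Agt, the angiotensinogen precursor, read 80.9, 98.4, 101, 81.1 and 55.6 CPM in cortex and 25.9, 30.1, 10.5, 12.4 and 26.0 CPM in outer medulla (-1.99 ± 0.54). In none of these 3 genes did the tissues overlap, and in each outer medulla library 3 was the lowest. Slc16a9, a carnitine transporter, had the deepest difference at -5.55 ± 0.66, and Cyp7b1, an oxysterol hydroxylase, stood the other way at 1.35 ± 0.22. Without the low-complexity libraries 9 genes of the list were lower and 1 was higher, with a median of -1.87.

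The segment 3 genes were also measured in the NOX4 line. Their median difference was 0.19 in NOX4 rats under LS and -0.88 in SS rats at HS21. The tissue difference itself differed between SS and NOX4 under LS in 9 of the 14 genes, all more negative in SS. Over all genes this test called 6.41% (5.19% more negative in SS). For Slc7a13 the NOX4 libraries read 567, 169, 181, 260 and 316 CPM in cortex and 1102, 3190, 5039, 3106 and 1589 CPM in outer medulla. The NOX4 difference was 3.23 ± 0.68, and SS minus NOX4 was -4.75 ± 0.92 (adjusted p = 0.000836). For Agt the NOX4 difference was 1.93 and SS minus NOX4 was -3.92 ± 0.76. In SS rats at HS21 Slc7a13 read 1344, 1183, 279, 588 and 221 CPM in cortex and 836, 302, 430, 1432 and 2354 CPM in outer medulla, and these libraries overlapped. Of the 9 genes 7 still differed between strains, in the same direction, without the low-complexity libraries, and likewise 7 without NOX4 outer medulla library 3. Of the 10 SS libraries under LS 6 were low-complexity libraries and of the 10 NOX4 libraries under LS 0; the part of this in the strain differences was not tested beyond leaving them out. How the tissues were dissected is not given in the sources used here, and whether it differed between groups was not tested.

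**Figure D2:**
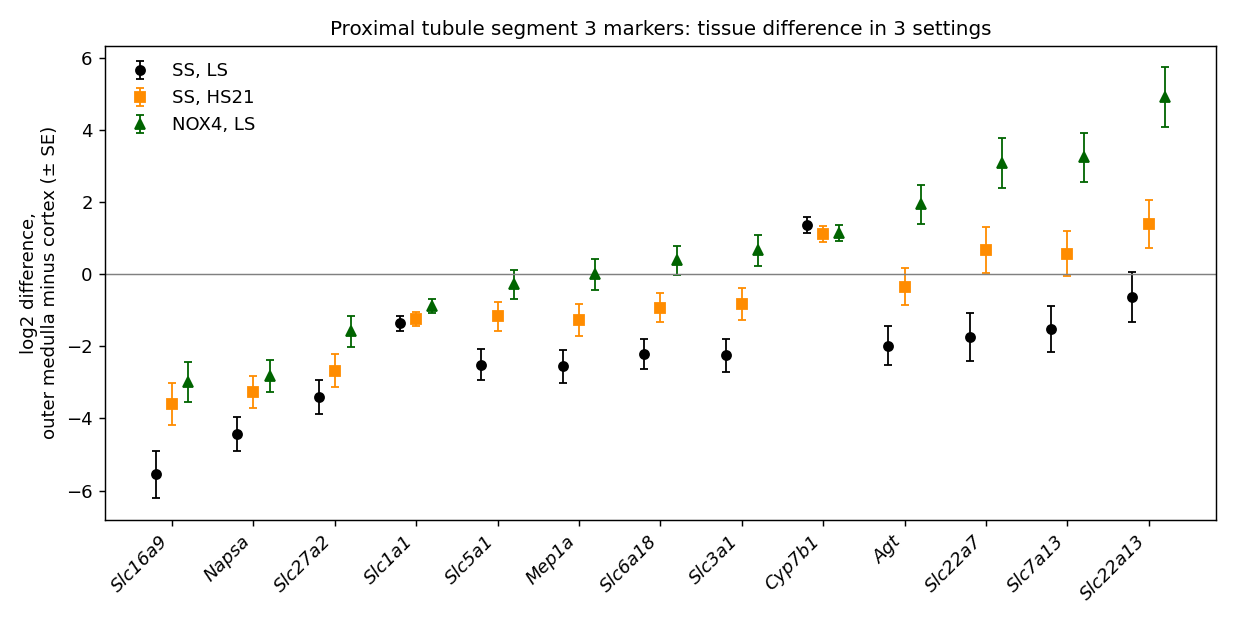
Tissue difference (log2, outer medulla minus cortex, ± SE) of 13 segment 3 genes in SS under LS, SS at HS21 and NOX4 under LS. For Slc7a13, Slc22a7 and Agt the SS value under LS lies below 0 and the NOX4 value above 0, while Cyp7b1 is similar in the 3 settings.

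Organic ion transporters, which secrete drugs and metabolites into the proximal tubule, showed a related pattern. Some genes stand in several lists, such as Slc22a8 in this list and in the early proximal tubule list. Counts of different lists are therefore not independent. Of 20 genes, 17 were lower in outer medulla and none was higher, with a median of -2.31 in SS and -0.43 in NOX4. The difference between strains was called in 10 of the 20, all more negative in SS. Slc22a2, an organic cation transporter of the proximal tubule, read 782, 671, 1024, 761 and 615 CPM in cortex and 268, 222, 51.8, 110 and 184 CPM in outer medulla (-2.20 ± 0.50). Without the low-complexity libraries 11 of the 20 genes were lower, and 8 differed between strains.

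The podocyte is the glomerular cell that forms the filtration slit. Of 15 podocyte genes 9 were lower and 3 higher, with a median of -1.15. Nphs1, which encodes the slit protein nephrin, read 91.1, 90.5, 69.3, 61.9 and 97.6 CPM in cortex and 1.15, 0, 0, 0.797 and 0 CPM in outer medulla (-7.54 ± 0.94, adjusted p = 2.01e-09). This slit gene was at or near 0 in outer medulla, and its values of 0 fell in low-complexity libraries 2, 3 and 5. Sema3g, a semaphorin of podocytes and vessels, read 193 to 294 CPM in cortex and 12.5 to 44.4 CPM in outer medulla (-3.07 ± 0.25). The 3 genes that were higher are not restricted to podocytes: Cdkn1c, a cell cycle inhibitor (1.83), Tcf21, a transcription factor of podocytes and stroma (1.00), and Plce1, a phospholipase (0.87).

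Of the 9 juxtaglomerular and mesangial genes 4 were higher and 3 lower. Nos1, the neuronal nitric oxide synthase of the macula densa, was lower (-1.07 ± 0.33), and its libraries overlapped because cortex library 3 stood at 3.47 CPM.

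Thin limb genes had the largest positive median of all lists, 2.56, with 9 of 10 genes higher and none lower. Slc14a2 (chr18:74508069-74542077), which encodes the urea transporters of the thin descending limb and the inner collecting duct, was 0 in 4 cortex libraries and 0.711 CPM in cortex library 3. In outer medulla it read 130, 153, 136, 187 and 161 CPM, a difference of 10.03 ± 0.92 (adjusted p = 5.75e-13) and the highest among the named genes. Fst, which encodes the activin antagonist follistatin, read 2.44, 2.70, 12.3, 1.88 and 1.07 CPM in cortex and 99.2, 110, 104, 102 and 136 CPM in outer medulla (4.76 ± 0.42). Cortex library 3 was the highest cortex library in both genes. Bst1, an enzyme of NAD metabolism, and Akr1b1, the aldose reductase that makes sorbitol, were higher by 2.71 and 2.29. Aqp1, the water channel shared by proximal tubule and thin descending limb, read 1883 to 2643 CPM in cortex and 1678 to 2060 CPM in outer medulla and was not called (-0.27 ± 0.18).

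Of 18 thick ascending limb genes, 14 were higher in outer medulla and 1 was lower, with a median of 1.69. Slc12a1 (chr3:117421604-117498367), the furosemide-sensitive cotransporter NKCC2, read 733, 594, 1041, 660 and 540 CPM in cortex and 5182, 5094, 4410, 4898 and 5256 CPM in outer medulla. The tissues were well apart, by 2.80 ± 0.22 (adjusted p = 1.16e-14). The potassium channel Kcnj1 (ROMK), which recycles potassium for that cotransporter, read 162 to 209 CPM in cortex and 606 to 1189 CPM in outer medulla (2.34 ± 0.22). Umod, which encodes the urinary protein uromodulin, was already at 2672 to 4520 CPM in cortex and reached 8418 to 11675 CPM in outer medulla (1.61 ± 0.27). Cldn19, a claudin of the paracellular magnesium and calcium path, read 20.8 to 31.9 CPM in cortex and 174 to 197 CPM in outer medulla (2.80 ± 0.22).

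In the distal convoluted tubule list 8 of 13 genes were lower and 3 higher, with a median of -1.0. Slc12a3, the thiazide-sensitive cotransporter NCC, read 615, 476, 360, 460 and 489 CPM in cortex and 4.45, 6.23, 3.24, 13.6 and 4.30 CPM in outer medulla (-6.24 ± 0.70). Emx1, a homeobox transcription factor, read 41.3 to 53.2 CPM and 0 to 6.47 CPM. Ppp1r1a, a phosphatase inhibitor, stood the other way, at 91.2 to 147 CPM in cortex and 556 to 653 CPM in outer medulla (2.31 ± 0.18). Slc16a7, a monocarboxylate transporter, was also higher in outer medulla (1.74).

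Of 9 connecting tubule genes 6 were lower and 2 higher, with a median of -1.29; without the low-complexity libraries 4 were lower and 1 higher. Calb1, the calcium buffer calbindin, read 460, 371, 298, 322 and 346 CPM in cortex and 1.19, 2.41, 1.62, 1.96 and 2.84 CPM in outer medulla. Trpv5, the apical calcium channel, read 16.8 to 28.0 CPM in cortex and at most 0.245 CPM in outer medulla. Of 17 genes of magnesium, calcium and vitamin D handling 13 were lower and 1 higher, with a median of -1.45. Cyp24a1, which degrades vitamin D and is made in proximal and distal tubule, read 75.7, 97.6, 30.9, 122 and 85.0 CPM in cortex and 0.229, 0, 0, 1.47 and 0 CPM in outer medulla. The values of 0 fell in low-complexity libraries. The parathyroid hormone receptor Pth1r was lower by -3.02 on the log2 scale.

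Collecting duct principal cells, which take up water under vasopressin, showed higher levels in outer medulla for 10 of 15 genes and lower for 1. The water channel Aqp2 read 186, 164, 165, 225 and 108 CPM in cortex and 952, 1141, 647, 1181 and 849 CPM in outer medulla (2.49 ± 0.29). The basolateral water channels followed it: Aqp3 read 69.1 to 104 CPM and 162 to 433 CPM, and Aqp4 read 6.04 to 15.5 CPM and 109 to 179 CPM. The vasopressin receptor Avpr2 was higher by 1.62 and the pump regulator Fxyd4 by 2.69. The alpha subunit of the sodium channel, Scnn1a, read 54.2 to 102 CPM in cortex and 66.7 to 149 CPM in outer medulla and was not called (0.39 ± 0.22). Kcne1, a potassium channel subunit, was 0 in all 5 outer medulla libraries and 1.42 to 7.26 CPM in cortex, at least 130-fold lower against a floor of 3 counts over the group.

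Intercalated cells secrete acid or base, and 8 of the 18 genes of their list were higher in outer medulla and 6 lower; without the low-complexity libraries 5 were higher and 6 lower. Slc26a4, the chloride-bicarbonate exchanger pendrin of base-secreting cells, read 90.5, 65.3, 42.0, 64.9 and 72.1 CPM in cortex and 0.0918, 0.991, 0.872, 0.184 and 0 CPM in outer medulla (-7.38 ± 0.74). Insrr, an alkali-sensing receptor of the same cells, read 25.2 to 43.4 CPM in cortex and at most 0.354 CPM in outer medulla (-8.22 ± 0.87). Among genes known from the acid-secreting cells, Slc26a7, a chloride-bicarbonate exchanger, was higher by 2.96, Aqp6 by 1.65 and the anion exchanger Slc4a1, which red cells share, by 1.08.

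Endothelial genes were higher in outer medulla for 10 of 15 genes and lower for 2. Slc14a1, the urea transporter of descending vasa recta and red cells, read 1.03, 0.927, 3.55, 0.235 and 0.995 CPM in cortex and 50.9, 66.3, 49.3, 70.2 and 75.4 CPM in outer medulla (5.53 ± 0.46). Plvap, which forms the diaphragms of fenestrated capillaries, was higher by 1.22 and Esam, a junction protein, by 1.48. Kdr, the main receptor for vascular endothelial growth factor and strong in glomeruli, was lower (-0.92). Of 6 red cell genes 3 were higher, 1 was lower and 2 were not called. Hba1 read 98.6 to 163 CPM in cortex and 357 to 627 CPM in outer medulla, and Hbb read 29.0 to 44.1 CPM and 109 to 267 CPM. The part of red cells in the endothelial values was not tested.

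Of 14 smooth muscle and pericyte genes 9 were higher and 4 lower. The contractile genes of arteries were among the lower: Myh11, smooth muscle myosin, read 64.6, 51.9, 40.1, 41.9 and 48.7 CPM in cortex and 7.89, 15.6, 6.73, 9.51 and 14.0 CPM in outer medulla (-2.21 ± 0.39). Cnn1, calponin, was 0 in all outer medulla libraries, at least 83.3-fold lower by the same floor. Pericyte genes were higher, Cspg4 by 1.63 and Rgs5 by 1.3. Of 28 fibroblast and matrix genes 21 were higher and 2 lower. Fn1, fibronectin, read 143, 142, 242, 141 and 153 CPM in cortex and 915, 759, 1090, 944 and 1048 CPM in outer medulla (2.53 ± 0.26). The matrix protein Tnc and the proteoglycan Bgn were higher by 2.41 and 1.80. Without the low-complexity libraries 13 of the 28 were higher and 2 lower.

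All but 1 of 16 macrophage and lymphocyte genes were higher in outer medulla and none was lower, with a median of 1.3; the exception was Nkg7, at 1.58 and 2.25 CPM. Csf1r, the receptor that maintains macrophages, read 77.0, 63.4, 85.0, 62.7 and 70.4 CPM in cortex and 192, 235, 252, 201 and 213 CPM in outer medulla (1.61 ± 0.18). Cd68, a macrophage lysosomal protein, was higher by 1.51 and the pan-leukocyte gene Ptprc by 1.35. Cd3e, of T cells, stood at 0.843 to 2.21 CPM and 2.54 to 7.85 CPM. The summed level of the list was 253 to 351 CPM in cortex and 574 to 949 CPM in outer medulla, without overlap. Without the low-complexity libraries 12 of the 16 were higher.

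Markers of tissues next to the kidney were low. Of 10 urothelium genes, of the lining of the renal pelvis, 5 were higher in outer medulla and none lower, and their summed level was 22.3 to 64.1 CPM in cortex and 59.3 to 123 CPM in outer medulla. Psca read at most 1.10 CPM in cortex and 7.29 to 19.5 CPM in outer medulla, and the uroplakin Upk1a at most 4.11 CPM and 1.57 to 14.5 CPM. The 7 adipocyte genes split, with Fabp4 (2.80) and Adipoq (1.63) higher and Cidec (-2.18) lower. Fabp4 is also made by capillary endothelium. The summed level of the adipocyte list was 56.9 to 96.9 CPM in cortex and 68.3 to 83.7 CPM in outer medulla. The 3 adrenal cortex genes summed to at most 9.77 CPM in any library. The part of these tissues in the other results was not tested.

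**Figure D3:**
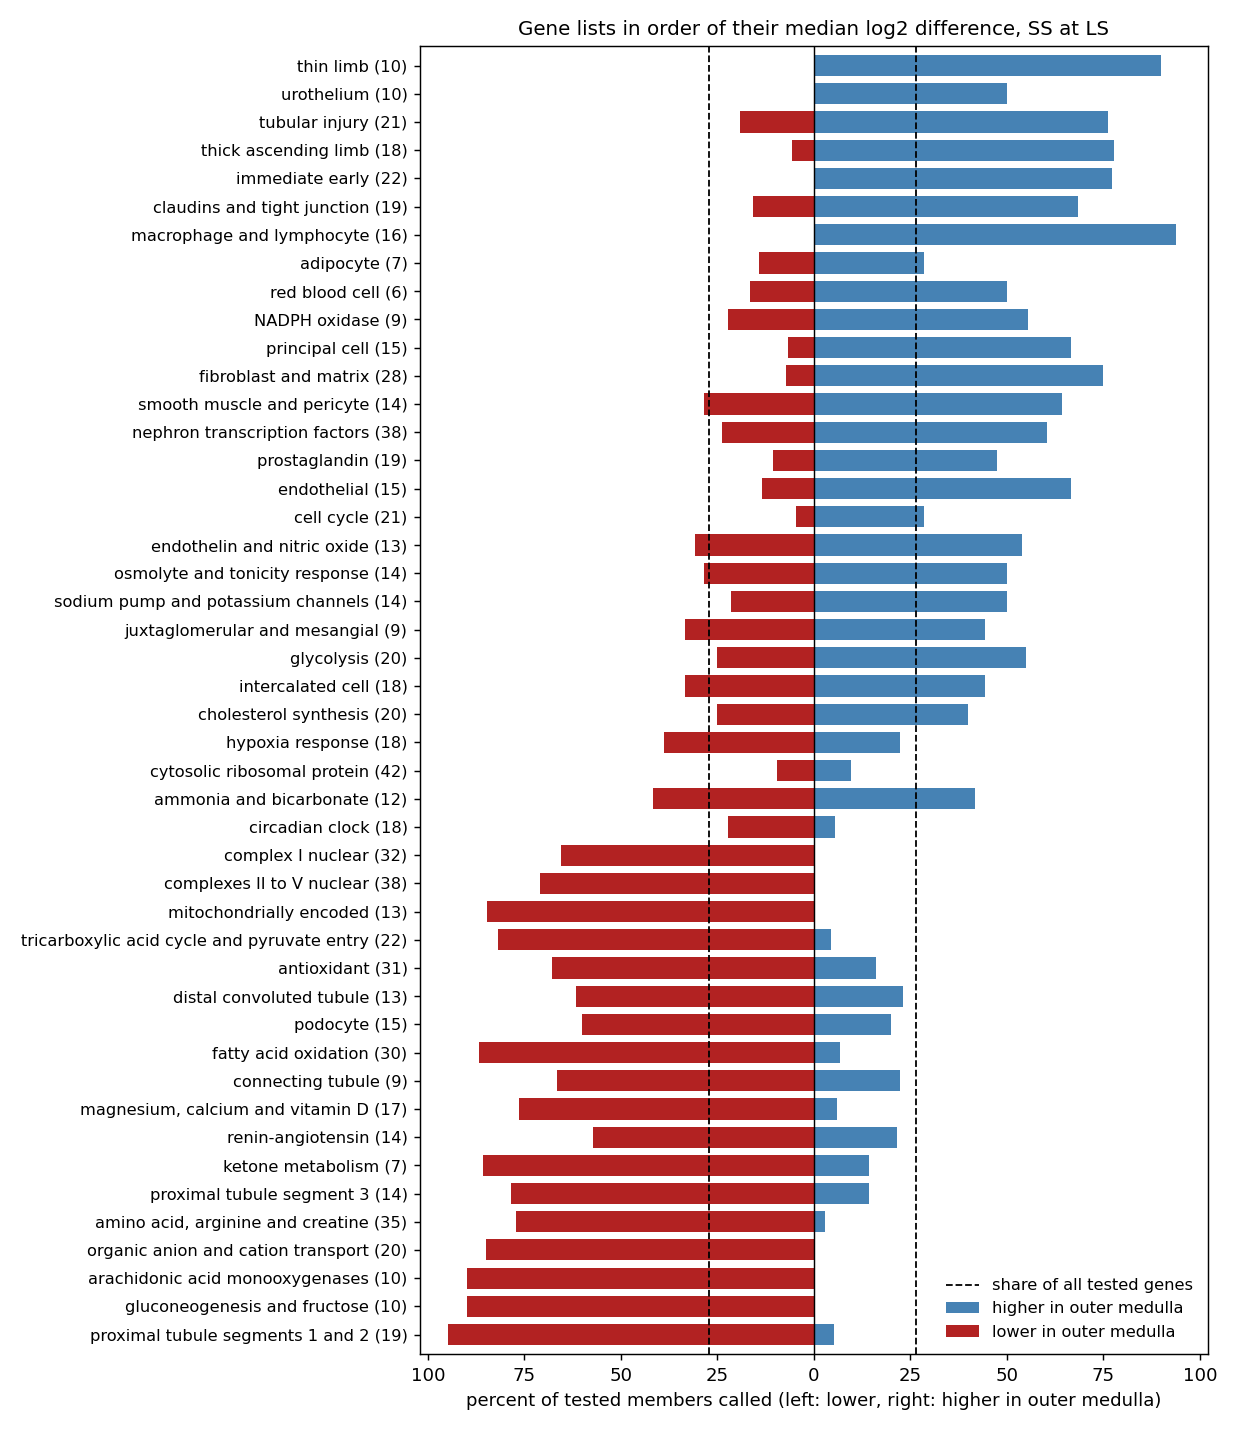
Percent of tested genes of each list that were called lower (left) or higher (right) in outer medulla, ordered by the list's median; dashed lines mark the shares over all tested genes, 27.3% and 26.4%. Early proximal tubule, gluconeogenesis and arachidonic acid monooxygenase lists stand at the lower end and thin limb, urothelium and tubular injury lists at the upper end.

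Genes of fuel metabolism were compared next. The proximal tubule runs on fatty acids and makes glucose, while the outer medulla lies at low oxygen tension. Gluconeogenesis and fructose genes were lower in outer medulla for 9 of 10 genes, with a median of -3.50. Pck1, the rate-limiting enzyme of glucose synthesis, read 6492, 7170, 6101, 6459 and 6930 CPM in cortex and 57.5, 90.8, 24.7, 67.0 and 68.0 CPM in outer medulla (-6.75 ± 0.78). G6pc, which releases free glucose, and Fbp1, fructose bisphosphatase, were lower by -5.48 and -4.47 on the log2 scale.

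Of 30 fatty acid oxidation genes 26 were lower and 2 higher, with a median of -1.19. Acsm3, a medium-chain acyl-CoA synthetase, read 487 to 791 CPM in cortex and 6.72 to 12.2 CPM in outer medulla (-6.16 ± 0.73). Ehhadh, the peroxisomal bifunctional enzyme, was lower by -2.38. Cpt1b, the muscle form of the enzyme that admits fatty acids to mitochondria, went against the list and read 8.52, 8.26, 16.3, 10.6 and 6.47 CPM in cortex and 62.4, 81.9, 59.8, 88.9 and 71.7 CPM in outer medulla (2.86 ± 0.26). The call of Echs1 (-4.51) rested on cortex library 2, at 83.4 CPM against 1.80 to 2.49 CPM in the others. Amino acid, arginine and creatine genes were lower for 27 of 35 and higher for 1, with Ddc (dopamine synthesis) and Gatm (the first step of creatine synthesis) lower by -7.30 and -6.04. Their tissue difference differed between strains in 12 of 35 genes, 9 of them more negative in SS; without the low-complexity libraries it did so in 7 genes more negative and 1 more positive, and without NOX4 outer medulla library 3 in 7 genes.

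Glycolysis genes were mixed, with 11 of 20 higher and 5 lower. Pfkp, the platelet form of phosphofructokinase, read 23.0, 19.9, 27.6, 32.2 and 20.9 CPM in cortex and 114, 136, 131, 176 and 126 CPM in outer medulla (2.46 ± 0.24). Hk1, hexokinase, was higher by 1.85, Pkm, pyruvate kinase, by 1.54 and the glucose transporter Slc2a1 by 1.52. Eno1, enolase, whose reaction serves both directions of the pathway, was lower and read 1820 to 2252 CPM in cortex and 783 to 966 CPM in outer medulla (-1.21 ± 0.14).

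Respiratory chain genes were lower by small amounts, and none of the nuclear or mitochondrial ones was called higher. The composition scaling factors were 0.846 to 0.889 in cortex libraries and 1.16 to 1.23 in outer medulla libraries. This scaling lowers every outer medulla level relative to cortex. The size, the direction and the calls of differences as small as these can therefore depend on it. The mitochondrial share of counts given below is not scaled. Of 32 nuclear complex I genes 21 were lower (median -0.41), 27 of the 38 nuclear genes of the later complexes (II to V) were lower (median -0.46), and of 13 mitochondrially encoded genes 11 were lower (median -0.60). Ndufa6, of complex I, read 133, 115, 98.6, 86.5 and 125 CPM in cortex and 48.1, 48.2, 55.3, 54.7 and 43.0 CPM in outer medulla (-1.17 ± 0.15). Sdha, of complex II, was lower by -0.92 and Atp5a1, of ATP synthase, by -0.81. Of 22 tricarboxylic acid cycle genes 18 were lower and 1 higher, led by Pc, pyruvate carboxylase (-3.44). Mitochondrial genes held 14.4 ± 1.01% of counts in cortex and 12.5 ± 1.19% in outer medulla (SD, n = 5), a difference of -1.85 percentage points (2-sided exact permutation p = 0.0397; the smallest possible is 0.00794). The ranges, 13.1 to 15.7% and 11.2 to 14.0%, overlapped, and the p rose to between 0.0635 and 0.0714 without cortex library 1, 3 or 5 or outer medulla library 2, 3 or 4. Of 42 cytosolic ribosomal protein genes 4 were higher and 4 lower, with a median of 0.03.

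**Figure D4:**
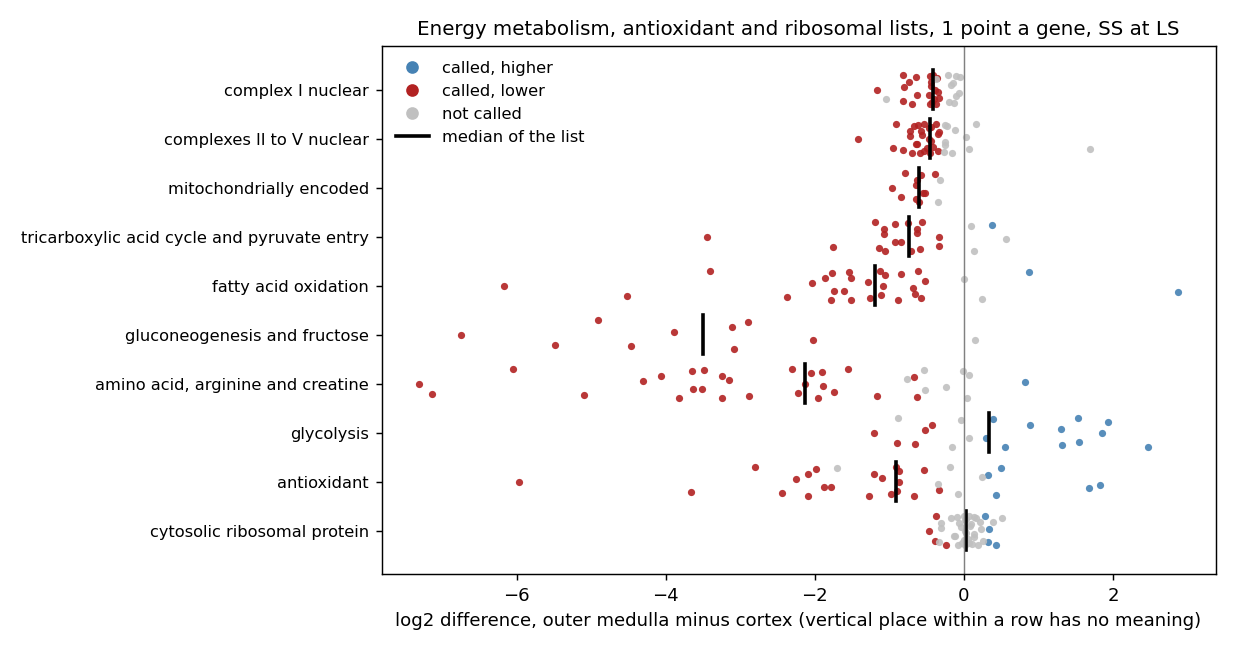
Tissue difference of each gene (log2, outer medulla minus cortex) in 10 lists; each point is a gene, coloured by its call, and each bar a list's median. Gluconeogenesis and amino acid genes reach far to the left (medians -3.50 and -2.13), respiratory chain genes lie just left of 0, and ribosomal protein genes centre on 0.

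Nox4 (chr1:150797084-150976194), an oxidase abundant in kidney that produces hydrogen peroxide, was higher in cortex in these rats. It read 325, 375, 309, 282 and 499 CPM in cortex and 11.5, 9.69, 5.42, 7.67 and 8.11 CPM in outer medulla. The tissues were far apart, with a difference of -5.40 ± 0.51 (adjusted p = 1.45e-12). In the NOX4 line, whose disrupted exons the labels do not name, its counts stood at 75.1 ± 10.1 CPM in cortex and 4.48 ± 2.70 CPM in outer medulla (SD, n = 5), with a difference of -4.04. SS minus NOX4 was -1.36 (adjusted p = 0.197), so the tissue difference was not shown to differ between strains. Cyba, the membrane partner of Nox4 and Cybb, was also lower (-1.56 ± 0.21). The phagocyte oxidase genes stood the other way, with Cybb at 35.6 to 66.0 CPM in cortex and 134 to 182 CPM in outer medulla and Rac2 and Ncf4 higher by 1.49 and 1.3. Macrophage genes, given above, moved with them, and their part in these values was not tested.

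Antioxidant genes were lower in outer medulla for 21 of 31 and higher for 5. Gpx3, the glutathione peroxidase that the proximal tubule secretes into plasma, read 24077, 28442, 21268, 24416 and 32916 CPM in cortex and 445, 430, 272, 514 and 438 CPM in outer medulla (-5.97 ± 0.61). Per kb of gene length it was the most abundant nuclear gene in cortex, at 17864 CPM per kb, where outer medulla stood at 286 CPM per kb. Cat, catalase, read 1419 to 1604 CPM and 145 to 360 CPM (-2.44 ± 0.35). Gclc, the rate-limiting enzyme of glutathione synthesis, read 6639, 6474, 8689, 6621 and 4798 CPM in cortex and 2637, 2233, 523, 1076 and 1964 CPM in outer medulla (-1.98 ± 0.58), a call that ended without the low-complexity libraries. Nqo1, a quinone reductase, was higher (1.83).

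Of 14 renin-angiotensin genes 8 were lower in outer medulla and 3 higher. Beside Agt, peptidases of the brush border were lower: Enpep, which removes the first residue of angiotensin II, read 310 to 347 CPM in cortex and 15.3 to 47.2 CPM in outer medulla (-3.46 ± 0.43). Anpep was lower by -2.48. The receptor gene Agtr1a was higher (0.78), a call that ended under at least 1 alternative. The tissue difference of 5 of the 14 differed between strains, 4 of them more negative in SS; without the low-complexity libraries 3 did so, 1 gene was higher and 6 were lower.

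In the endothelin and nitric oxide list 7 of 13 genes were higher and 4 lower. Corin, the protease that activates atrial natriuretic peptide, read 0.158, 0, 0, 0.860 and 0.0711 CPM in cortex and 13.8, 21.8, 9.03, 10.4 and 7.45 CPM in outer medulla (5.80 ± 0.82). Edn3, endothelin 3, read 0.625 to 5.76 CPM and 38.6 to 60.3 CPM (4.01 ± 0.42), and its receptor Ednrb was higher by 0.90. Of 19 prostaglandin genes 9 were higher and 2 lower. Ptgs1, cyclooxygenase 1, read 4.85 to 15.7 CPM and 48.8 to 59.0 CPM (2.24 ± 0.25), and the receptors Ptgfr and Ptger3 were higher by 2.30 and 2.04. The monooxygenases that turn arachidonic acid into vasoactive products ran the other way, with 9 of 10 lower and a median of -2.75. Cyp2c23, the main epoxygenase of rat kidney, read 2059, 2096, 1634, 1911 and 2973 CPM in cortex and 22.0, 36.2, 3.80, 27.0 and 18.4 CPM in outer medulla (-6.64 ± 0.80). Cyp4a1, of the hydroxylases that make 20-HETE, was lower by -5.49; Cyp4a genes are close copies and their reads may be shared. The tissue difference of 5 of the 10 differed between strains, 1 did so without the low-complexity libraries, and 2 without NOX4 outer medulla library 3.

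Genes of the response to high tonicity, with which medullary cells survive in salt and urea, were higher for 7 of 14 and lower for 4; without the low-complexity libraries 6 were higher and 1 lower. The betaine transporter Slc6a12 read 3.47, 1.60, 8.37, 1.64 and 2.56 CPM in cortex and 59.6, 49.3, 80.3, 101 and 63.8 CPM in outer medulla (4.33 ± 0.42). Nfat5, the transcription factor of that response, read 166 to 273 CPM and 751 to 846 CPM (1.98 ± 0.19). Hypoxia genes were mixed, with 4 of 18 higher (26.4% over all genes), 7 lower (27.3% over all) and 7 not called. Their median was 0.15. Ndrg1, a stress gene induced by low oxygen, read 2480, 2470, 1780, 1586 and 3546 CPM in cortex and 371, 401, 291, 316 and 437 CPM in outer medulla (-2.71 ± 0.34). Adm, the vasodilator adrenomedullin, was also lower (-1.78).

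Of 21 tubular injury genes 16 were higher in outer medulla of these rats under LS and 4 lower, with a median of 1.74. Spp1, osteopontin, which healthy thin limbs also make, read 492, 452, 1132, 596 and 679 CPM in cortex and 3359, 3704, 4562, 3398 and 3951 CPM in outer medulla (2.50 ± 0.32). Lcn2, the injury marker NGAL, read 3.46 to 7.11 CPM and 34.5 to 69.7 CPM (3.02 ± 0.34). S100a6, a calcium-binding protein, and Ccl2, the monocyte attractant, were higher by 2.52 and 2.72. Havcr1, the proximal tubule injury marker KIM-1, was lower instead, at 16.9 and 5.59 CPM on average (-1.59), and its call ended under at least 1 alternative. Macrophage and matrix genes, given above, moved with this list, and their part in it was not tested.

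Immediate early genes were higher in outer medulla for 17 of 22 and lower for none, with a median of 1.5. In 3 of the 22 the libraries did not overlap between tissues (30.8% over all genes). Fos read 3.63, 24.7, 12.4, 1.17 and 1.63 CPM in cortex and 34.8, 525, 96.0, 46.5 and 11.9 CPM in outer medulla (4.04 ± 1.09), a call that ended with limma voom. Egr1 read 21.2, 96.6, 58.8, 57.0 and 8.95 CPM and 216, 1426, 334, 367 and 41.2 CPM (3.30 ± 0.88). In both genes library 2 was the highest and library 5 among the lowest of each tissue. Junb, which did not overlap, read 44.2 to 76.7 CPM in cortex and 188, 893, 272, 240 and 77.2 CPM in outer medulla (2.45 ± 0.45). Dusp1, a phosphatase of the same early response, read 24.0 to 62.1 CPM and 28.6 to 471 CPM. Averaged over the list, log2(CPM + 1) was 3.58 to 4.23 in cortex and 3.98 to 6.26 in outer medulla.

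**Figure D5:**
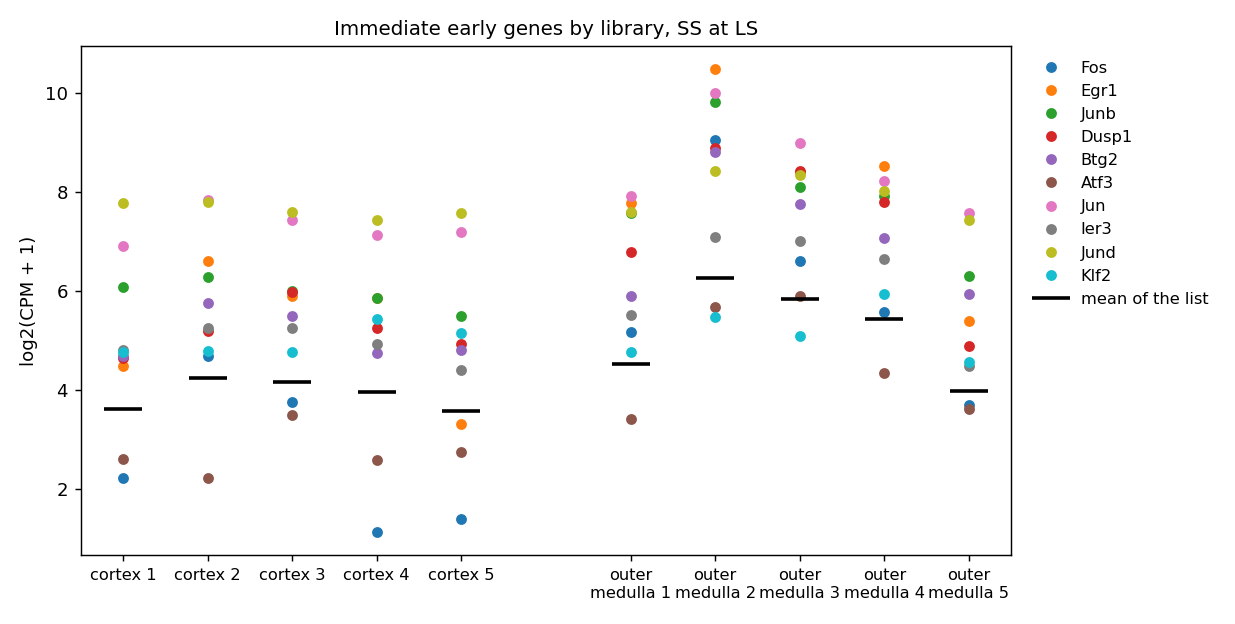
Level of 10 immediate early genes in each library (log2(CPM + 1)), with the mean over the 22 genes of the list as a bar. Outer medulla library 2 is the highest, with a mean of 6.26, and outer medulla library 5, at 3.98, lies within the range of the cortex libraries.

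Circadian clock genes were called for 5 of 18 (53.7% over all genes), 4 of them lower (27.3% over all). The clock output factor Hlf read 10 to 20.8 CPM in cortex and 0.561 to 1.90 CPM in outer medulla (-3.71 ± 0.49). Cell cycle genes were called for 7 of 21 (53.7% over all genes), 6 of them higher (26.4% over all). The replication gene Mcm6 led the higher ones (1.70). Without the low-complexity libraries 3 genes of the list were higher and 1 was lower. Kif11, a spindle motor, was the exception, at 73.7 to 106 CPM in cortex and 5.09 to 14.2 CPM in outer medulla (-2.99 ± 0.31). Cholesterol synthesis genes were higher for 8 of 20 and lower for 5, with Sqle (0.94) and Hmgcs1 (0.80) higher and Dhcr7 (-1.44) lower.

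Among 38 transcription factors of the nephron 23 were higher in outer medulla and 9 lower. Hnf4a, which maintains proximal tubule identity, read 1036, 1124, 989, 1203 and 1038 CPM in cortex and 116, 116, 36.6, 62.0 and 88.7 CPM in outer medulla (-3.68 ± 0.48), and its relative Hnf4g was lower by -3.43. Sim2, a transcription factor of the single-minded family, read 8.99, 12.1, 25.0, 6.64 and 7.32 CPM in cortex and 115, 140, 102, 129 and 113 CPM in outer medulla (3.32 ± 0.34). Cortex library 3 was again the highest cortex library. Of 19 claudins and tight junction genes 13 were higher and 3 lower. Cldn2, the leaky claudin of the proximal tubule, read 519 to 602 CPM in cortex and 115 to 183 CPM in outer medulla (-1.85 ± 0.27), while Cldn4 and Cldn7, of the collecting duct, were higher by 2.42 and 1.63.

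Atp1b1, the beta subunit of the sodium pump, was not called (0.09). Of the 14 sodium pump and potassium channel genes 7 were higher in outer medulla and 3 lower, among them the potassium channels Kcnj15 (-5.63), Kcnk5 (-2.53) and Kcnt1 (2.59). Of 12 ammonia and bicarbonate genes 5 were higher and 5 lower, with a median of -0.04. Slc4a4, the proximal exit route for bicarbonate, was lower by -6.60, and Slc4a7, of the thick ascending limb, was higher by 3.32.

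Among the genes at the extremes outside these lists, Hsd17b2, which inactivates sex steroids, read 12.5, 13.3, 2.45, 6.64 and 19.0 CPM in cortex and 0 in every outer medulla library, at least 304-fold lower. Spink1, a trypsin inhibitor, read 134 to 287 CPM in cortex and at most 1.41 CPM in outer medulla. Klk1c9, of the kallikrein family whose members share sequence, read 458 to 749 CPM and at most 8.14 CPM. Folh1, glutamate carboxypeptidase, read 76.9 to 135 CPM and at most 0.675 CPM. All 4 were nearly limited to cortex libraries.

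On the other side stood 2 transporters and a signalling gene of the medulla. Slc4a11, a homolog of borate transporters, read 4.57, 5.31, 4.34, 1.25 and 2.20 CPM in cortex and 82.6, 81.0, 50.2, 92.6 and 84.9 CPM in outer medulla (4.47 ± 0.31). Slc4a10, a sodium-bicarbonate transporter, read 0 to 0.869 CPM and 13.9 to 22.8 CPM. Wnt7b, the collecting duct signal that shapes the medulla during development, read 1.56 to 7.82 CPM and 61.0 to 89.3 CPM (4.66 ± 0.42). Glycam1, an endothelial mucin, read at most 0.394 CPM and 7.57 to 17.7 CPM. Timm17b (4.82 ± 1.91) was unsteady, from 0 to 17.1 CPM within outer medulla.

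The tissue difference was then compared across strains and diets. In NOX4 rats under LS 6224 genes were called (38.1%) and in SS rats at HS21 6819 (41.8%). Of the 8770 SS calls under LS 5080 (57.9%) were also called in the same direction in NOX4, which is 81.6% of the NOX4 calls, and 132 were called in the opposite direction. The tissue difference differed between strains in 1046 genes, 847 of them more negative in SS. This count fell to 654, of which 440 were among the 1046, without the low-complexity libraries, and to 581 without NOX4 outer medulla library 3. Against HS21 it differed in 32 genes (0.196%; none of the HS21 libraries was a low-complexity library), with 19 higher at HS21 (0.116%) and 13 lower (0.0796%). Both tests use the same SS libraries under LS, so their results are not independent.

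By strain, the smallest p was that of Cldn3, a claudin of epithelial tight junctions. In SS it read 31.1, 24.5, 87.9, 31.3 and 20.5 CPM in cortex and 49.8, 59.4, 40.9, 32.6 and 32.7 CPM in outer medulla and was not called (0.14 ± 0.29), while the NOX4 difference was 3.12; SS minus NOX4 was -2.98 ± 0.43 (adjusted p = 5.37e-05). Odc1, the first enzyme of polyamine synthesis, stood at -1.16 in SS and 2.46 in NOX4, and SS minus NOX4 was -3.62 ± 0.59. Tnfrsf11b, the decoy receptor osteoprotegerin, stood at -1.46 and 2.35. Gstp1, a glutathione transferase, stood at -0.35 and 1.20, and Hoxb8, a homeobox gene, at 0.50 and 1.85. Cox19, an assembly factor of cytochrome oxidase, stood at -1.01 and 0.17. All 6 were more negative in SS.

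By diet, Pde8a, a cyclic AMP phosphodiesterase, stood at 0.22 under LS and -0.69 at HS21, a change of -0.90 ± 0.16 (adjusted p = 0.00866). Gstp1 stood at -0.35 and 0.96, and Ryr1, a calcium release channel, at -2.21 and -0.56. Col14a1, a collagen of fibroblasts, read 5.68, 8.77, 6.48, 3.99 and 7.11 CPM in cortex and 1.97, 0, 1.87, 2.02 and 1.88 CPM in outer medulla under LS, a difference of -2.03 ± 0.45 against 1.11 at HS21. Syde1 stood at 1.47 and 0.56. The count of genes by diet ranged from 10 to 103 when single libraries were left out.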

How the data were processed

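Per the labels' protocols, RNA from snap-frozen tissue was isolated with Trizol and a cleanup column, and poly(A) RNA was sequenced. The submitters' processing notes name HISAT2 2.0.5, StringTie 1.3.3b and featureCounts 1.5.0-p3. The authors deposited raw read counts by gene for each library, per the file headers; the build and the strand setting are not given in the sources used here, so reads of overlapping genes on both strands cannot be told apart.

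The deposited counts of 32545 genes were analysed with edgeR 4.0.16 in R 4.3.3: filterByExpr by group, TMM scaling, and a quasi-likelihood F test with 1 coefficient for each of 12 groups over 60 libraries, adjusted by Benjamini-Hochberg. The SE is the log2 difference over the root of F. It includes the spread between libraries. Floors (3 counts) cover counting error only, since reads carry no molecular identifiers. On simulated data of 16206 genes, 28.8% of 1.5-fold, 47.0% of 2-fold and 73.8% of 4-fold changes were called. In that simulation 16009 of the genes carried no tissue change, while 53.7% of genes were called in the real data. The rates therefore cannot be carried over to the real comparison.

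The comparison and the 47 gene lists (863 of 894 entries matched) were chosen with earlier results of these data known. Genes named are, at 5 CPM or more, the 15 highest and 15 lowest, up to 5 called per list, 6 per interaction, Nox4 and the 5 highest per kb. Slc34a1, Lrp2, Slc9a3, Slc7a13, Slc3a1, Slc22a2, Slc22a7, Cyp7b1, Cdkn1c, Tcf21, Plce1, Umod, Kcne1, Aqp6, Slc4a1, Cnn1, Eno1, Gclc, Nqo1, Agtr1a, Havcr1, Btg2 and Jund were outside this rule and chosen after their values were seen. Some genes that the rule names are not reported here.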

Additional observations from a re-analysis of the deposited data

Results flagged for a closer look

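Dixon's test singled out the end library of a group of 5 in 9 of 132 tests; chance does so in about 1 group in 20. In cortex these were library 3 for the claudin and tight junction list (highest, a mean log2(CPM + 1) of 5.17), library 1 for Insrr (43.4 CPM) and library 5 for Folh1 (135 CPM). In outer medulla library 3 was the lowest for the distal convoluted tubule list (4.87), the ammonia and bicarbonate list (6.37) and Slc4a11 (50.2 CPM), and the highest for the NADPH oxidase list (5.22) and Glycam1 (17.7 CPM). Outer medulla library 5 was the highest for Fst (136 CPM). Outer medulla library 3 thus held 5 of the 9.

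The tissue difference under LS differed between SS and NOX4 in 1046 genes by an interaction test in edgeR. The count was 654 without the low-complexity libraries (6 of 10 SS and 0 of 10 NOX4 libraries under LS) and 581 without NOX4 outer medulla library 3. SS minus NOX4, on the log2 scale, was -10.31 for Car15, a carbonic anhydrase, -5.93 for Dmrtc1c1, -4.12 for Ildr2, -3.81 for Tnfrsf11b, -3.62 for Odc1, -3.07 for Fst, -2.98 for Cldn3, -1.68 for Ryr1, -1.55 for Gstp1, -1.36 for Hoxb8 and -1.18 for Cox19. It was 0.96 for Pde8a and 0.92 for Syde1. Car15, Dmrtc1c1 and Ildr2 held at most 4 counts in all SS outer medulla libraries together, so the size of their values depends on the prior count of the fit.

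Between HS21 and LS in SS the tissue difference differed in 32 genes. HS21 minus LS was 4.03 for Ildr2, 3.14 for Col14a1, 1.65 for Ryr1, 1.3 for Gstp1, 0.95 for Cox19, 0.92 for Hoxb8, -0.90 for Pde8a and -0.91 for Syde1. The SS libraries under LS enter both tests, so a gene that stands apart in those libraries appears in both.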

How the results depend on the processing

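The count of tissue differences in SS under LS stayed within 1.5 times 8770 under every alternative run: 6141 (groups alone) to 9109 (no filter), 9095 with DESeq2, 7965 with limma voom, 7111 without the low-complexity libraries and 8349 to 8740 with single libraries left out. DESeq2 size factors gave 8781, 4587 of them higher. Of the 240 called genes that the rule named, 223 were called under every alternative that could give a value. The call was lost by 14 of the 240 without the low-complexity libraries, 10 with limma voom and 0 with DESeq2, and none reversed. Most of these genes were named for large differences, so they do not stand for all calls. Over all 8770 called genes, 6244 kept the call in the same direction without the low-complexity libraries. The 1046 genes that differed between strains became 1728 with limma voom, 654 without the low-complexity libraries and 581 (without NOX4 outer medulla library 3) to 1328 with single libraries left out. The 32 genes that differed by diet became 127 with DESeq2, 17 with the groups alone, 20 with no filter, 12 without the low-complexity libraries and 10 (without HS21 outer medulla library 4) to 103 (without LS outer medulla library 1) with single libraries left out; without LS cortex library 5 the count was 55. The mitochondrial share differed by -2.22 to -1.52 points. The cause of these changes was not tested.

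Replicate numbers were not shown to pair the tissues: deviations of same-numbered libraries correlated at -0.03 to 0.17, over 0.1 in 1 of 5 pairs, and 4 of 5 cortex libraries correlated best with their own number. With the replicate block the counts were 8531 for tissue, 853 by strain and 13 by diet, and the mitochondrial difference of -1.85 had an exact sign-flip p of 0.0625, the smallest possible with 5 pairs.

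At this depth and number of libraries simulated 1.5-fold changes were called in 28.8% of cases. Most genes of that simulation carried no tissue change, so the rate cannot be carried over to the real comparison.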

Other observations

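Per kb of gene length, the nuclear genes with the highest levels differed between tissues. In cortex they included Gpx3 (17864 CPM per kb), Kap (5612), Fxyd2 (4447) and Sepp1 (4173). In outer medulla they were Fxyd2 (5775), Umod (4658), Spp1 (2498), Eef1a1 (2296) and Tmsb4x (2008). The mitochondrial gene Mt-co1 stood above all of these, at 37606 CPM per kb in cortex and 21690 in outer medulla. These levels rest on the deposited gene lengths. Kap, Sepp1, Eef1a1 and Tmsb4x were named after their values were seen.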
